A study of Mus musculus with 8 samples.

Results

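Laminins, nidogens, perlecan and agrin are the non-collagen scaffold of the basement membrane, the thin sheet of matrix that wraps each adipocyte, each capillary and each muscle fibre. The 10 genes described here, Lama2, Lama4, Lama5, Lamb1, Lamb2, Lamc1, Nid1, Nid2, Hspg2 and Agrn, were taken by symbol from the 31053 genes of the count table, and all 10 were found. They were compared between brown adipose tissue (BAT), the heat-producing fat depot of rodents, of 4 wild-type (WT) mice and of 4 db/db mice. The labels give C57BL6/J as the strain of all 8, and the study's methods give the db/db line as B6.BKS(D)-Leprdb/J, whose mutated leptin receptor gene makes the mice overeat and become obese. All were 8 weeks old, and per the study's methods they were male, fed a normal diet and fasted before tissue was collected. The study's text names different suppliers for the WT and the db/db line and its resource list a common one, and the strain background of the db/db line could not be settled from the sources used here. Any effect of the source or background of the animals cannot be told apart from genotype. The labels give stromal vascular fraction as the cell type beside brown adipose tissue as the tissue. Ucp1, Cidea, Adipoq and Plin1, genes of mature adipocytes, had at least 919 counts in every library, so these libraries held RNA of mature adipocytes.

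A laminin is a cross-shaped trimer of one alpha, one beta and one gamma chain. The alpha chain carries the domains that cells bind through integrins and dystroglycan, and neighbouring laminins join into a network. Nidogen links that network to the separate network of type IV collagen, and the heparan sulfate proteoglycans perlecan (Hspg2) and agrin (Agrn) fasten to both and hold growth factors.

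Total counts ran from 2374079 to 3240074 per library, and 3 counts corresponded to between 0.902 and 1.33 CPM (counts scaled to library size by TMM). Lepr had 0 counts in the 8 libraries, which left no transcript to check the mutation by. Across all genes, 9264 passed the filter on low counts and 2568 of these, or 27.7%, differed between the genotypes in edgeR's quasi-likelihood test at a Benjamini-Hochberg adjusted p of 0.05. Of all tested genes 15.8% were called higher and 11.9% lower in db/db, and in 15.3% the 4 db/db libraries were all above the 4 WT libraries. Replicate 1 of db/db had the most skeletal muscle transcripts and stood apart in its lymphocyte transcripts, and values of the members without it are given where it is the highest library.

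Nid1, Lamb2, Hspg2 and Lamc1 rose in db/db BAT, by 3.85-fold, 2.24-fold, 2.14-fold and 1.56-fold. Lamb1, the other beta chain, averaged 131.1 ± 7.29 CPM across the WT libraries and 116.0 ± 15.4 CPM across those of db/db (SD, n = 4 each) and did not pass the test. Of the 9 members that could be tested, 4 were called higher, 0 were called lower and 5 were not called, beside 15.8% and 11.9% of all genes called higher and lower. In 5 of the 9, the db/db libraries were all above the WT libraries, beside 15.3% of all genes. The median log2 fold change over the 9 was 0.79, against 0.01 over all genes. Nid2 is counted among them although it passed the filter only through its db/db libraries. Lama5 did not pass the filter and was not tested. The calls of Hspg2 and Lamc1 were lost when a muscle or an endothelial score was added to the fit as a covariate. Each score is the mean log2 CPM of the tested marker genes of that cell type. In bulk tissue, fewer cells of a type and less RNA per cell cannot be told apart.

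**Figure D1:**
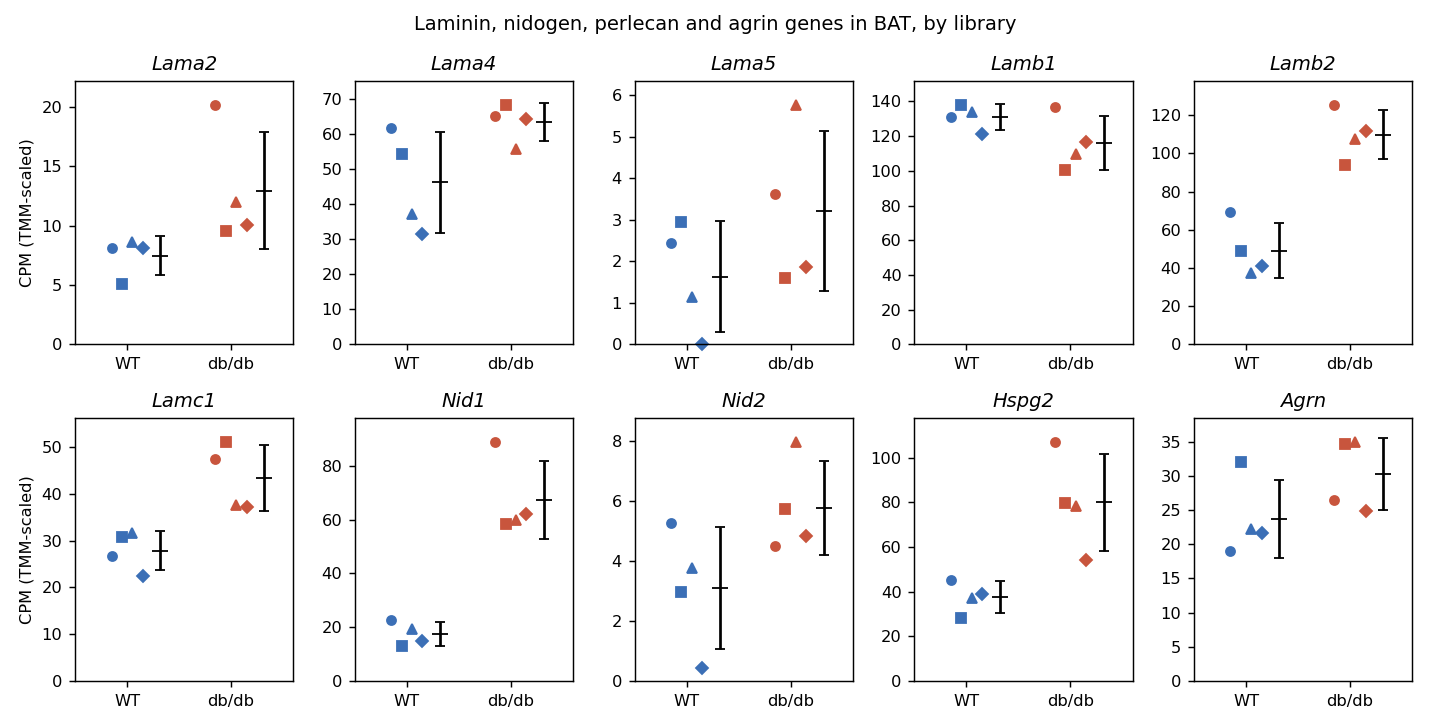
CPM of each of the 10 members (vertical axis, from 0) in the 4 WT (blue) and 4 db/db (red) libraries. Circles, squares, triangles and diamonds are replicates 1 to 4 of each genotype, which are different animals, and black bars give the mean ± SD. Nid1, Lamb2, Hspg2, Lamc1 and Lama2 do not overlap between the genotypes, while Lamb1 does.

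Nid1 (ENSMUSG00000005397, chromosome 13, 13437551 to 13512269, mm10) encodes nidogen-1, the link between the laminin and type IV collagen networks. Its 4 WT libraries had 22.7, 13.1, 19.2 and 14.9 CPM, and its 4 db/db libraries had 89.1, 58.2, 59.8 and 62.1 CPM. Every db/db library was more than 2 times above the highest WT library, and replicate 1 was the highest of the db/db libraries. The means were 17.4 ± 4.32 and 67.3 ± 14.6 CPM (SD, n = 4 each), a log2 fold change of 1.94 (SE 0.20, edgeR adjusted p 2.25e-06). Without db/db replicate 1 the log2 fold change was 1.77 (edgeR adjusted p 2.54e-06). An exon of Nid1 overlaps the antisense gene Gm48682, which had 0 counts in every library.

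Nid2 (chromosome 14, 19751265 to 19811787) encodes nidogen-2, which binds the same partners. It had 13, 7, 10 and 1 counts in WT and 15, 18, 18 and 13 counts in db/db, or 3.10 ± 2.02 and 5.76 ± 1.56 CPM (SD, n = 4 each). The genotypes overlapped, and the log2 fold change of 0.86 (95% interval −0.15 to 1.86, edgeR adjusted p 0.198) did not exceed the replicate spread. At these counts a change of the size seen for Nid1 lies just outside the interval, while no change lies inside it. Nid2 shares exon bases with Rtraf on the other strand, which had 230 to 429 counts per library, so its counts are uncertain if counting did not use the strand.

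Of the 2 beta chains, Lamb2 was called higher and Lamb1 was not called. Lamb2 (ENSMUSG00000052911, chromosome 9, 108479736 to 108490530) encodes laminin beta-2, the chain known from the neuromuscular junction, the kidney filter and vessel walls. Its WT libraries had 69.2, 49.0, 37.2 and 40.8 CPM and its db/db libraries had 125.4, 94.2, 107.3 and 112.0 CPM. The lowest db/db library was above the highest WT library, which was WT replicate 1. The mean rose from 49.0 ± 14.3 to 109.7 ± 12.9 CPM (SD, n = 4 each), a log2 fold change of 1.16 (SE 0.18, edgeR adjusted p 0.000108), and without db/db replicate 1 it was 1.08.

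Lamb1 (ENSMUSG00000002900, chromosome 12, 31265234 to 31329644) encodes laminin beta-1, the most widespread beta chain. In WT it had 131.1, 138.0, 134.1 and 121.0 CPM and in db/db 136.9, 100.5, 109.9 and 116.8 CPM. Replicate 1 of db/db lay among the WT values and the other 3 db/db libraries lay below every WT library. The log2 fold change was −0.17 (SE 0.13, 95% interval −0.45 to 0.10, edgeR adjusted p 0.358), and without db/db replicate 1 it was −0.27 (edgeR adjusted p 0.158). A rise of the size seen for Lamb2 lies outside the interval over all 8 libraries.

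The ratio of Lamb1 to Lamb2 counts within a library does not depend on how libraries are scaled. It was 1.89, 2.81, 3.59 and 2.96 in the WT libraries and 1.09, 1.07, 1.02 and 1.04 in the db/db libraries. The db/db libraries lay within a narrow range, all below the WT libraries. On the log2 scale the ratio averaged 1.46 ± 0.39 for WT against 0.08 ± 0.04 for db/db (SD, n = 4 each), so it was 2.6-fold lower in db/db (exact two-sided permutation p = 0.0286, the smallest possible with 4 against 4). Adjusted over the 6 ratios tested, the p was 0.172, which did not pass. A single separated ratio cannot pass that adjustment, since its exact p is already the smallest possible, so the adjusted p does not decide. The other 5 ratios overlapped between the genotypes. Hspg2 to Agrn was 1.63-fold higher in db/db (exact permutation p = 0.114), or 0.71 on the log2 scale and 0.50 without db/db replicate 1, and Nid1 to Nid2 1.70-fold higher (exact permutation p = 0.314), or 0.77 on the log2 scale. Without WT replicate 4, which had 1 count of Nid2, the Nid1 to Nid2 difference was 1.38 (exact permutation p adjusted over the 6 ratios 0.171) and the genotypes did not overlap. The 3 ratios among Lama2, Lama4 and Lama5 had exact permutation p between 0.486 and 0.714.

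**Figure D2:**
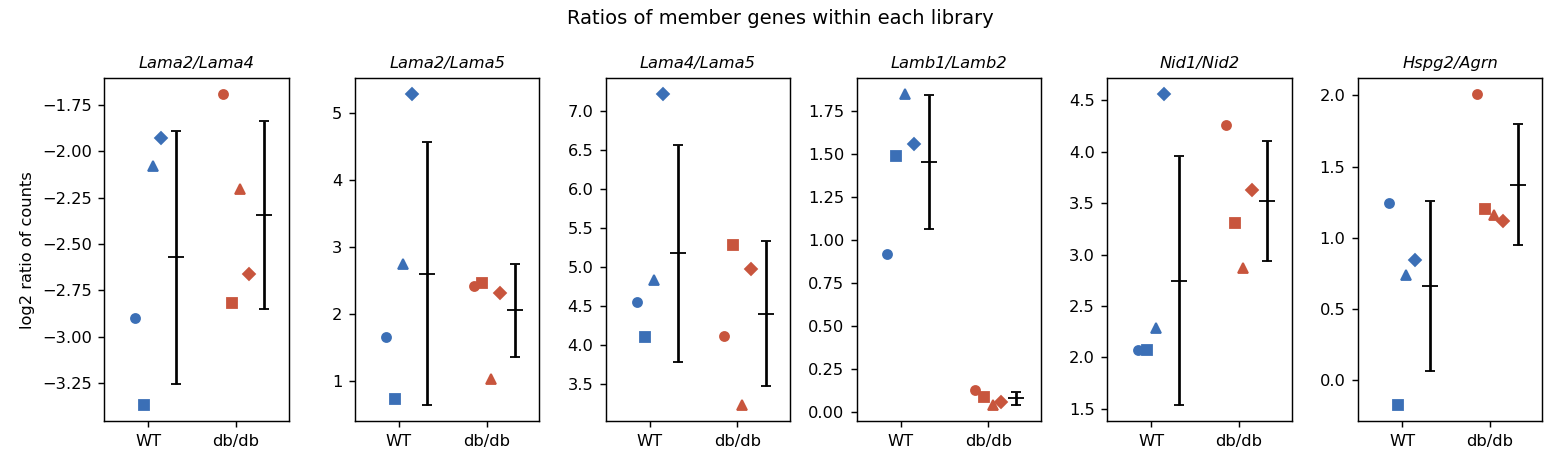
Log2 ratio of the counts of 2 members within each library (vertical axis, a separate scale in each panel) for 6 pairs, in WT (blue) and db/db (red). Circles, squares, triangles and diamonds are replicates 1 to 4, and black bars give the mean ± SD. Of the 6 ratios, Lamb1/Lamb2 separates the genotypes, at 0.92 to 1.85 in WT and 0.04 to 0.13 in db/db.

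Lamc1 (ENSMUSG00000026478, chromosome 1, 153218922 to 153332786) encodes laminin gamma-1, which carries the site that nidogen binds and is part of nearly all laminins outside epithelia. It had 26.7, 30.8, 31.6 and 22.5 CPM in WT and 47.5, 51.2, 37.7 and 37.2 CPM in db/db. The genotypes did not overlap, with replicates 1 and 2 of db/db above the other pair. The mean rose from 27.9 ± 4.18 to 43.4 ± 7.06 CPM (SD, n = 4 each), or 0.64 in log2 units (SE 0.18, edgeR adjusted p 0.0126). Without WT replicate 4, the lowest library, it was 0.54 and did not pass (edgeR adjusted p 0.0533). The call was also lost with the muscle score (0.63, edgeR adjusted p 0.286) or the endothelial score (0.78, edgeR adjusted p 0.375) as a covariate.

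The alpha chains set which receptors a laminin engages. Lama4 (chromosome 10, 38965515 to 39110188), the alpha chain of endothelial and adipocyte basement membranes, had 61.9, 54.4, 37.2 and 31.4 CPM in WT and 65.3, 68.4, 55.9 and 64.4 CPM in db/db. WT replicate 1 was above the lowest db/db library, so the genotypes overlapped. The log2 fold change was 0.46 (SE 0.19, 95% interval 0.06 to 0.86) and did not pass after adjustment over all genes (edgeR adjusted p 0.0840). Without WT replicate 1 it was 0.61 and passed (edgeR adjusted p 0.0276), and without WT replicate 4 it was 0.30 (edgeR adjusted p 0.269).

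Lama2 (chromosome 10, 26980036 to 27619758) encodes the alpha chain of the muscle fibre and peripheral nerve basement membrane, lost in a form of congenital muscular dystrophy. It had 8.09, 5.06, 8.64 and 8.07 CPM in WT and 20.2, 9.54, 11.97 and 10.04 CPM in db/db. The genotypes did not overlap, and db/db replicate 1 was the highest. The log2 fold change of 0.79 (SE 0.31, edgeR adjusted p 0.0655) did not pass, and without db/db replicate 1 it was 0.47 (edgeR adjusted p 0.306). Without db/db replicate 2, the lowest of that genotype, it was 0.92 and passed (edgeR adjusted p 0.0472). An exon of Lama2 overlaps the antisense gene Gm48084, which had 0 counts in every library.

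Lama5 (chromosome 2, 180176373 to 180225859), the broadly expressed alpha chain of mature vessels and epithelia, was close to the limit of detection. It had 6, 7, 3 and 0 counts in WT and 12, 5, 13 and 5 counts in db/db. A difference was not detectable at this depth (exact permutation p = 0.257 on log2 CPM), and when every gene with at least 1 count was tested the edgeR adjusted p was 0.395.

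Among the proteoglycans, Hspg2 (ENSMUSG00000028763, chromosome 4, 137468769 to 137570630) encodes perlecan, the main heparan sulfate proteoglycan of vessel and adipocyte basement membranes. Its WT libraries had 45.3, 28.3, 37.2 and 39.1 CPM and its db/db libraries 107.1, 79.9, 78.5 and 54.3 CPM. The genotypes did not overlap, and db/db replicate 4 was the closest to WT. The mean rose from 37.5 ± 7.04 to 79.9 ± 21.6 CPM (SD, n = 4 each), a log2 fold change of 1.09 (SE 0.20, edgeR adjusted p 0.000461), and without db/db replicate 1 it was 0.91 (edgeR adjusted p 0.00143). With the muscle score (0.69, edgeR adjusted p 0.233) or the endothelial score (1.36, edgeR adjusted p 0.106) as a covariate the call was lost.

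Agrn (ENSMUSG00000041936, chromosome 4, 156165290 to 156197488) encodes agrin, which clusters acetylcholine receptors at the neuromuscular junction and binds laminin and dystroglycan elsewhere. It had 19.0, 32.1, 22.2 and 21.7 CPM in WT and 26.5, 34.7, 35.0 and 24.9 CPM in db/db. The genotypes overlapped through WT replicate 2, and the log2 fold change of 0.35 (SE 0.21, 95% interval −0.08 to 0.78, edgeR adjusted p 0.225) did not exceed the replicate spread.

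To set the promoters of 3 members that rose beside that of Lamb1, which did not pass, the 120 bases before the annotated gene start are printed for Lamb1, Lamb2, Nid1 and Hspg2 (RefSeq, GRCm38.p6, all on the plus strand). Capitals mark motif matches on either strand. The GC box was searched as GGGCGG and the CCAAT box by its own letters. The TATA box was searched as TATAAA. For the AP-1 site the letters were TGANTCA. The gene start is that of GENCODE M21, the most upstream annotated base, and RefSeq places the start 59, 126, 51 and 34 bases further downstream in Lamb1, Lamb2, Nid1 and Hspg2.
Lamb1, chr12:31265114-31265233: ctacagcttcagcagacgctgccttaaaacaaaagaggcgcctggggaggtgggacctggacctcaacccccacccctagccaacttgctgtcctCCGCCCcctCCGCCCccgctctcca
Lamb2, chr9:108479616-108479735: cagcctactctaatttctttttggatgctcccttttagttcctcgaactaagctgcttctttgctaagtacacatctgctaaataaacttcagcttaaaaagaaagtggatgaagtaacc
Nid1, chr13:13437431-13437550: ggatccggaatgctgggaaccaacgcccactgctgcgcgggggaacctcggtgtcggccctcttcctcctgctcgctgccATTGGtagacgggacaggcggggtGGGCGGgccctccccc
Hspg2, chr4:137468649-137468768: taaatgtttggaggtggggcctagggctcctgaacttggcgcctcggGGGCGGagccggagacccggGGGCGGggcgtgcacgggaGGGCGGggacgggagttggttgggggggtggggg
Lamb1 has 2 GC boxes in this window, Nid1 has 1 GC box and 1 CCAAT box, Hspg2 has 3 GC boxes and Lamb2 has none of the 4 motifs. Windows not printed held 7 GC boxes in Agrn, which was not called, and 2 in Lama5, which was not tested. Over the 14364 genes with such a window, 35.2% held a GC box, 24.9% a CCAAT box, 5.96% a TATA box and 3.24% an AP-1 site. These matches are a description of the letters and were not tied to the measured levels.

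Collagen genes of the basement membrane, to whose network the nidogens tie laminin, also rose. Of the 8 basement membrane collagen genes, 4 passed the filter and 4 were called higher in db/db, beside 15.8% of all tested genes. Col4a1 and Col4a2, the chains of the common type IV collagen trimer, rose by 0.97 (SE 0.17, edgeR adjusted p 0.000279) and 0.98 (SE 0.17, edgeR adjusted p 0.000248) on the log2 scale. With the muscle score as a covariate both calls were lost, at 0.81 (edgeR adjusted p 0.0825) for Col4a1 and 0.71 (edgeR adjusted p 0.127) for Col4a2. Col4a1 had 160.4 to 225.8 CPM in WT and 295.7 to 477.7 CPM in db/db. Col15a1 and Col18a1, whose collagens sit at the outer face of basement membranes and carry endostatin domains, rose more, by 2.6 (SE 0.40) and 3.08 (SE 0.24) on the log2 scale. Col18a1 went from 4.04 ± 1.13 to 34.6 ± 2.37 CPM (SD, n = 4 each; edgeR adjusted p 8.14e-08), with 2.53 to 5.26 CPM in WT and 32.5 to 37.2 CPM in db/db. Col15a1 spanned 17.7 to 78.5 CPM in db/db, with replicate 1 the highest, and without that library its log2 fold change was 2.08. With the muscle score it was 1.90 (edgeR adjusted p 0.0465) and with the endothelial score 4.54 (edgeR adjusted p 0.000575). Col15a1 and Col18a1 passed the filter only through their db/db libraries. Col4a1 and Col4a2 share exon bases at their common start, and Col15a1 overlaps the antisense gene Gm12426, so these counts are uncertain if counting did not use the strand.

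Of 13 genes for receptors of laminin and agrin, 8 were tested, 5 were called higher and 0 lower, beside 15.8% and 11.9% of all tested genes. Itga7, the integrin alpha chain through which muscle fibres hold laminin, had 9.34 to 23.1 CPM in WT and 46.9 to 55.1 CPM in db/db, a rise of 1.65 in log2 units (SE 0.24, edgeR adjusted p 7.54e-05). Itgb1, the beta-1 integrin chain shared by laminin and collagen receptors, rose by 0.56 and Dag1, which encodes dystroglycan, by 0.63 on the log2 scale. Itga6, the alpha chain of the other main laminin integrins, rose by 0.82 (SE 0.25, edgeR adjusted p 0.0195), with an overlap between the genotypes, and the call was lost without db/db replicate 1 (log2 fold change 0.61, edgeR adjusted p 0.0804), WT replicate 3 (0.76, edgeR adjusted p 0.0550) or WT replicate 4 (0.64, edgeR adjusted p 0.0730). Sdc2, a cell surface heparan sulfate proteoglycan, rose by 1.1 on that scale. With the muscle score as a covariate the calls of Itgb1 (0.45, edgeR adjusted p 0.244), Dag1 (0.40, edgeR adjusted p 0.409), Sdc2 (0.89, edgeR adjusted p 0.206) and Itga6 (0.77, edgeR adjusted p 0.333) were lost. With the endothelial score those of Itgb1 (0.80, edgeR adjusted p 0.151), Dag1 (0.70, edgeR adjusted p 0.381) and Itga7 (1.43, edgeR adjusted p 0.179) were lost. Bcam, Sdc3 and Sdc4 were not called, with log2 fold changes of 0.25, 0.79 and −0.47. Without WT replicate 1, Sdc4 was at −0.75 and called lower (edgeR adjusted p 0.00537). Without db/db replicate 2, Sdc3 was at 1.01 and called higher (edgeR adjusted p 0.0369). Itga7, Bcam and Sdc3 share exon bases with another gene and are uncertain in the same way. Lrp4 and Musk, the agrin receptor of the neuromuscular junction, had at most 2 and 0 counts in any library.

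**Figure D3:**
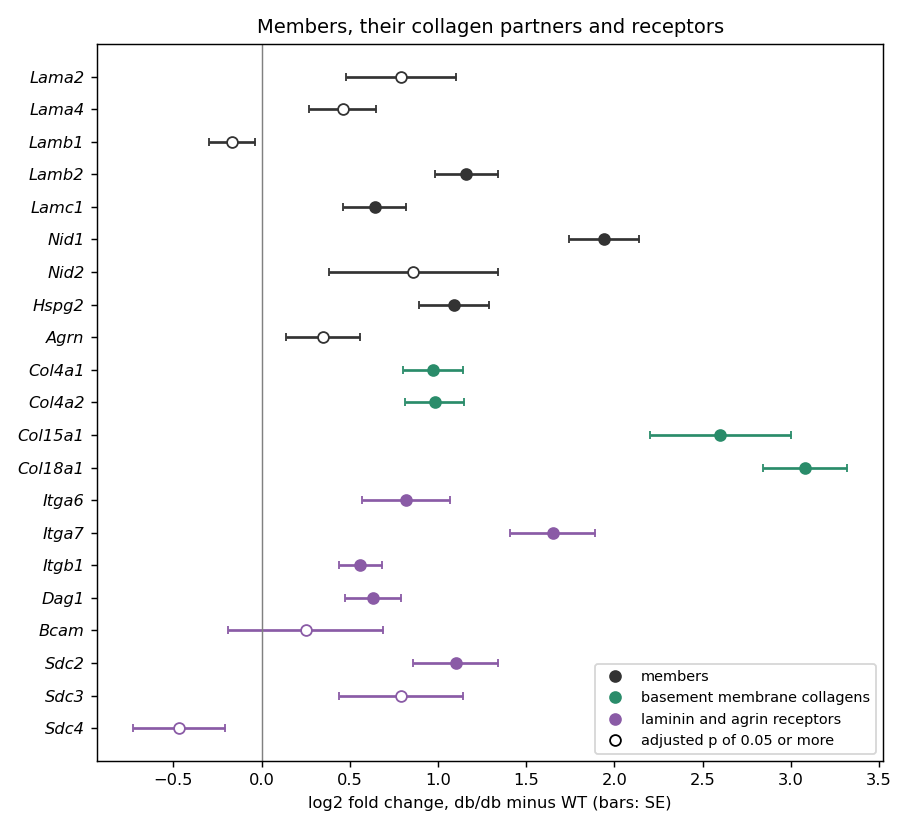
Log2 fold change of db/db over WT (horizontal axis, bars give the SE) for the 9 tested members (black), 4 basement membrane collagens (green) and 8 laminin and agrin receptors (purple). Filled points have an edgeR adjusted p under 0.05, open points do not. Nid1 has the largest value among the members at 1.94, and Col18a1 reaches 3.08.

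Genes whose products bind, build or cut the same sheet were counted by list, beside 15.8% of all tested genes called higher and 11.9% lower. The 3 tested receptors of type IV collagen were called higher. Ddr1 and Ddr2, collagen-activated receptor kinases, rose by 2.59 and 1.66 on the log2 scale, and Itga1 by 0.42 (edgeR adjusted p 0.0455), a call that was lost in DESeq2 (adjusted p 0.0575) and in 7 of the 8 fits without one library, down to 0.28 without WT replicate 3 (edgeR adjusted p 0.163). Ddr2 was at 1.11 without db/db replicate 1, its highest library, and at 0.62 and not called with the muscle score as a covariate (edgeR adjusted p 0.520). Of 10 tested genes of the dystroglycan complex 5 were called higher, led by Dtna at 2.85, Sntb1 at 1.89 and Sgce at 1.15 on the log2 scale. Of the 10, 3 passed the filter only through their db/db libraries, Dtna and Sntb1 among them, and the dystrophin gene Dmd was not called (log2 fold change 0.23). Of 8 tested enzymes that build the laminin-binding sugar of dystroglycan 2 were called higher, close to the share over all genes. Among them was B4gat1, which primes the synthesis of that sugar, at 0.93 on the log2 scale. Of 8 tested chaperones and enzymes of type IV collagen 4 were called higher, with Pxdn, the peroxidase that crosslinks type IV collagen, at 1.76, the collagen chaperone gene Serpinh1 at 1.33 and the lysyl hydroxylase gene Plod1 at 0.64 on the log2 scale. Smoc2, a calcium-binding matrix protein, rose by 2.43 and was the 1 gene called among 5 tested other basement membrane glycoproteins. That count was also close to the share over all genes. Of 7 tested cleaving enzymes 3 were called higher, the cathepsin genes Ctss at 3.19 and Ctsl at 1.17 and the gelatinase gene Mmp2 at 1.30 on the log2 scale. With the muscle score, the calls of Itga1, Dtna (1.59), Sntb1, Sgce, B4gat1 (0.54), Serpinh1, Plod1 and Mmp2 were lost as well, and with the endothelial score those of Itga1 (0.72), Sntb1, Sgce (0.70), B4gat1 (1.80), Serpinh1 and Ctsl. Over the alternatives tested, the lowest log2 fold change was 1.63 for Sntb1, 1.05 for Ctsl and 1 for Mmp2. It was 0.89 for Serpinh1, 0.59 for Plod1 and 0.37 for Itga1. Ddr1, Pxdn, Smoc2 and Ctss stayed called in both fits. Over the alternatives their log2 fold changes ran from 2.15 to 2.64, 1.58 to 1.99, 1.51 to 2.90 and 3.14 to 4.12. The call of Plod1 was also lost without WT replicate 3, WT replicate 4 or db/db replicate 4. Ddr1, Ddr2, Itga1, Dtna, B4gat1 and Ctsl share exon bases with another annotated gene, which leaves their counts uncertain.

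Over these lists together, 53 of 87 genes were tested, 27 were called higher and 0 lower, with a median log2 fold change of 0.79 against 0.01 over all genes and beside 15.8% of all genes called higher. Of the 53, 6 passed the filter only through their db/db libraries. Other laminin chains were too low to be tested. Lamb3 had 5 to 28 counts, Lamc3 had 1 to 13, Lama3 had at most 2, and Lama1 had 0 in every library.

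Marker genes of several cell types differed between the same libraries. Their counts of calls stand beside 15.8% of all tested genes called higher and 11.9% lower. The summed CPM of all members was 299.7 to 391.7 in WT and 488.4 to 626.0 in db/db. The summed endothelial markers were lower in db/db, at 506.9 to 563.7 CPM in WT and 382.4 to 455.5 CPM in db/db, and of 11 tested endothelial genes 0 were called higher and 3 lower, namely Kdr, Tek and Emcn, while Cldn5 and Esam were at log2 fold changes of 0.31 and 0.10 and not called. Erg had at most 2 counts per library and Vwf was not tested. Pericyte and vascular smooth muscle markers were at 236.4 to 274.7 CPM in WT and 370.1 to 479.8 CPM in db/db, with 3 of 8 genes called higher. These were Rgs5 (mean 166.4 CPM in WT and 237.4 CPM in db/db), Acta2 (23.2 and 106.6 CPM) and Cspg4. Kcnj8 and Abcc9 were at log2 fold changes of −0.30 and −0.18 and not called, and Pdgfrb, Notch3 and Myh11 were not called either. Fibroblast markers were at 622.5 to 788.4 CPM in WT and 1264 to 2726 CPM in db/db, with 8 of 8 called higher, and macrophage markers were at 154.0 to 202.3 CPM in WT and 730.8 to 1286 CPM in db/db, also with 8 of 8 called higher. Schwann cell markers were at 119.1 to 206.0 CPM in WT and 363.9 to 568.8 CPM in db/db, with 2 of 4 tested genes called higher, among them S100b, which adipocytes also express. Lymphocyte markers were near the floor, at 0.425 to 6.75 CPM in WT and 0 to 15.3 CPM in db/db, and could not be tested. Markers of mature brown adipocytes overlapped, at 15180 to 21280 CPM in WT and 16610 to 22400 CPM in db/db, and moved in both directions. Of 8 tested, Plin1 and Fabp4 were called higher and Ucp1, Cidea, Plin5 and Cox7a1 lower, and Fabp4 alone made up 7789 CPM of the WT mean and 12190 CPM of the db/db mean. Some of these genes passed the filter only through their db/db libraries, namely 2 of the pericyte and smooth muscle list (Cspg4, called, and Myh11), 2 of the fibroblast list (Pdgfra and Pi16), 2 of the macrophage list (Adgre1 and Cd68) and 1 of the Schwann cell list. The part of these cell types in the members' differences was not tested.

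Skeletal muscle lies against the depot. Of 13 muscle marker genes 12 were called higher, beside 15.8% of all tested genes, and 1 of the 12 (Myh2) passed the filter only through db/db. Their summed level was 489.7 to 1736 CPM in WT and 2343 to 11720 CPM in db/db, with db/db replicate 1 the highest. That library was also the highest of the db/db libraries for Nid1, Lamb2, Hspg2, Lama2 and Lamb1. Replicate 4 had the highest muscle level in WT. The part of muscle tissue in the members' values was not tested. Fitted beside the muscle score, 2 of the 4 called members remained called, Nid1 at a log2 fold change of 1.79 (edgeR adjusted p 0.00164) and Lamb2 at 1.27 (edgeR adjusted p 0.0104), while Hspg2 was at 0.69 (edgeR adjusted p 0.233), Lamc1 at 0.63 (edgeR adjusted p 0.286) and Lama2 at 0.12. With the endothelial score as a covariate, the same 2 remained called, Nid1 at 2.53 and Lamb2 at 1.87, while Hspg2 was at 1.36 (edgeR adjusted p 0.106) and Lamc1 at 0.78 (edgeR adjusted p 0.375). The summed levels of both marker lists differed between the genotypes without overlap, so a fit with either score cannot fully separate the list from genotype.

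**Figure D4:**
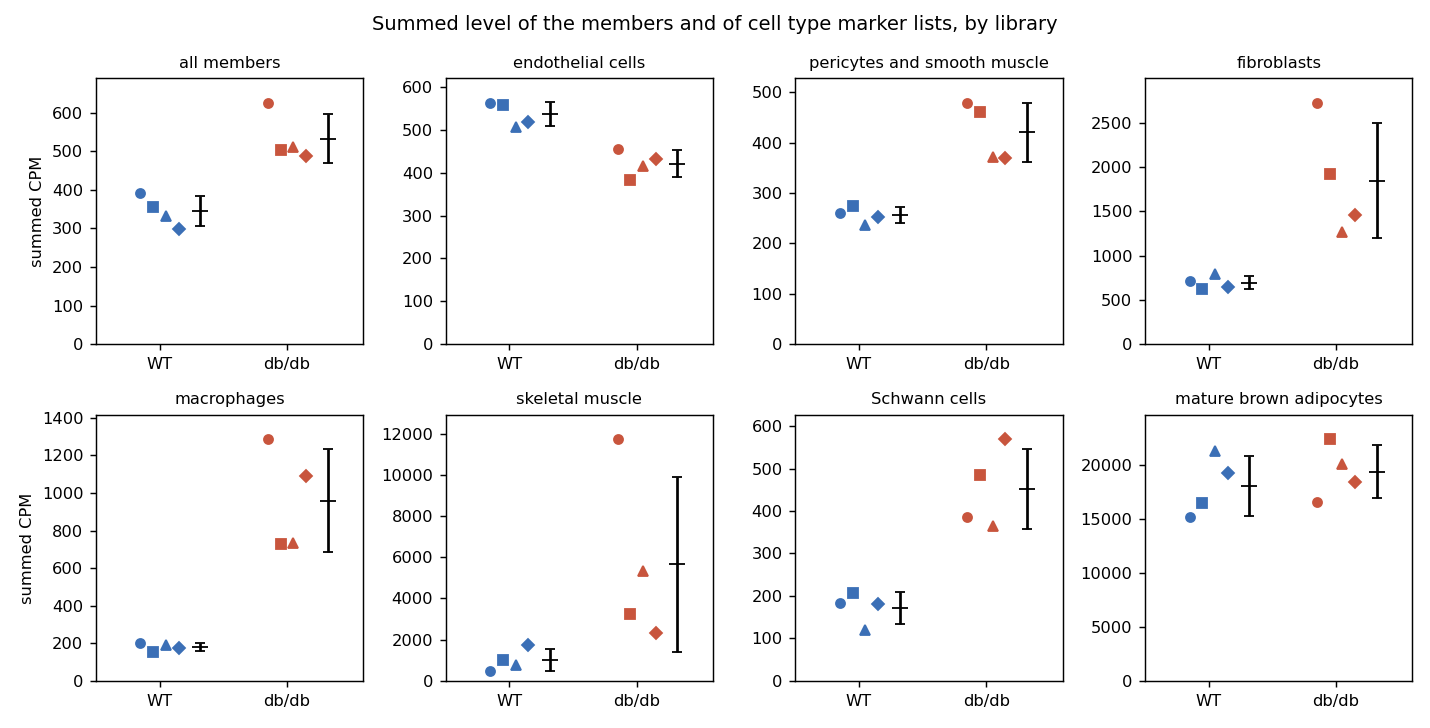
Summed CPM (vertical axis, from 0) of the 10 members and of 7 lists of cell type marker genes in the 4 WT (blue) and 4 db/db (red) libraries. Circles, squares, triangles and diamonds are replicates 1 to 4, and black bars give the mean ± SD. The members' sum is higher and the endothelial sum lower in every db/db library than in every WT library, and db/db replicate 1 reaches 11720 CPM for skeletal muscle.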

How the data were processed

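The authors prepared single-end libraries of BAT RNA through a commercial digital mRNA-seq service and deposited raw counts per Ensembl gene. The study's methods name trimming with bbduk, alignment to mm10 with STAR and counting with HTSeq-count, while the labels' processing notes name Trimmomatic, HISAT2 and DESeq2. The study's resource list also holds Trimmomatic and HISAT2, and its methods name DESeq2 for differential expression. Strand use, collapsing of molecular identifiers and coverage of the whole transcript or only its end are not given in the sources used here, so levels were not compared between genes. The deposited normalized values and sample sheet were not used.

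Identifiers were matched to GENCODE M21 symbols (30934 of 31053). The quasi-likelihood test of edgeR 4.0.16 (R 4.3.3) was fitted with genotype as the only term to the 9264 genes kept by filterByExpr (minimum count 10, minimum total 15) after TMM scaling, and p-values were adjusted over all of them by Benjamini-Hochberg. Standard errors and 95% intervals came from the F statistic. CPM are counts over the filtered, TMM-scaled library size. Chain ratios used log2 counts with 0.5 added and exact permutation over samples. The procedures were tested on simulated data.

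Genes named are the 10 members, every tested basement membrane collagen and laminin or agrin receptor, and up to 3 called genes of each other list with the largest change. Some genes that this rule or the lists hold are not reported here. Other genes, such as Dmd and the untested chains and receptors, and all marker genes named were chosen after their values were seen. The members and lists were chosen with earlier results of these data known. Alternatives were DESeq2 1.42.0, limma-voom (limma 3.58.1), other scalings and filters, 2 covariates, a replicate block and leaving out each sample. The replicate numbers come from the titles and belong to different animals, and nothing says whether libraries were made in one batch. The closest pair of replicates differed by a chi-square of 3.99 per degree of freedom, so no library was counted as a duplicate. Figures were drawn with matplotlib.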

Additional observations from a re-analysis of the deposited data

Results flagged for a closer look

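Dixon's test (95% level) was applied to 48 sets of 4 values from one genotype, and in 6 of them a single library lay apart, where chance gives about 2.4. Nid1 in db/db replicate 1 was at 89.1 CPM, against 58.2 to 62.1 CPM in the other db/db libraries. The log2 ratio of Hspg2 to Agrn in the same library was 2.01, against 1.12 to 1.20. Lymphocyte markers summed to 15.3 CPM in this library, against 0 to 1.33 CPM, and it also held the most skeletal muscle transcripts. Lama2 in WT replicate 2 was at 5.06 CPM, against 8.07 to 8.64 CPM, which rests on 12 counts. The log2 ratio of Nid1 to Nid2 in WT replicate 4 was 4.56, against 2.07 to 2.29, and rests on 1 count of Nid2. The log2 ratio of Lama2 to Lama5 in db/db replicate 3 was 1.03, against 2.32 to 2.47, and rests on 13 counts of Lama5. The cause was not tested for any of these.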

How the results depend on the processing

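The calls of Nid1 and Lamb2 held in the 10 alternatives and 8 fits without one library, with log2 fold changes of 1.77 to 2.53 and 1.03 to 1.87. Adding the muscle score as a covariate, 659 genes differed (478 higher, 181 lower), 2 members were called, both higher, and 10 pathway genes (8 higher, 2 lower). With the endothelial score, 602 genes differed (497 higher, 105 lower), 2 members were called, both higher, and 16 pathway genes (16 higher). The log2 fold change of Lamb1 turned to 0.31 with the endothelial score, and that of Bcam to −0.07 with the muscle score. Testing all genes that had any count called 33 pathway genes, 31 higher and 2 lower. Leaving out one library gave 2236 to 2483 genes differing (1281 to 1435 higher, 889 to 1056 lower), 3 to 5 members (3 to 5 higher, 0 lower) and 25 to 31 pathway genes (25 to 30 higher, 0 to 1 lower). Bcam ranged from −0.19 to 0.49 over these fits and was negative without db/db replicate 1. Over these 8 fits the ratio differences on the log2 scale ran from −0.04 to 0.44 for Lama2/Lama4, −1.17 to 0.35 for Lama2/Lama5, −1.13 to −0.10 for Lama4/Lama5, −1.55 to −1.25 for Lamb1/Lamb2, 0.52 to 1.38 for Nid1/Nid2 and 0.43 to 0.90 for Hspg2/Agrn. The sign of Lama2/Lama4 turned without WT replicate 2 and that of Lama2/Lama5 without WT replicate 4. The higher share of calls was 57.1% in the reported fit, 72.5% with the muscle score and 82.6% with the endothelial score. With 3 against 4 libraries the smallest exact p is 0.0286, before adjustment over 6 ratios. The cause was not tested. Blocking on replicate number gave 2557 genes that differed and 5 members were called, Lama4 among them (edgeR adjusted p 0.0477). Libraries that share a number come from separate mice, with deviations that correlated at −0.0781 to 0.049, with 2 of 4 WT libraries closest to their own number. Sdc4 was called lower with the muscle score (−1.23, edgeR adjusted p 0.0452) and with the filter of 1 count (−0.52, edgeR adjusted p 0.0408). Lama2 passed with at least 10 counts in every sample (edgeR adjusted p 0.0394). Levels under about 3 counts, as in Lama5 and Nid2 in some libraries, are limited by depth. The floor of 3 counts covers counting error only, while the intervals of fold changes come from the fit over animals.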
